A study of Mus musculus with 8 samples.

Results

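The nuclear-encoded subunits of oxidative phosphorylation were examined in platelet RNA from mice labelled WT and mice labelled Dnmt3a+/-. The set was taken by gene symbol from the deposited tables: names that begin with Nduf and a subunit letter for complex I, Sdha to Sdhd for complex II, Uqcr for complex III, Cox4 to Cox8 for complex IV and Atp5 for complex V, without names ending in a pseudogene suffix. It held 90 of 55487 genes. Of these, 41 were in complex I, 4 in complex II, 8 in complex III, 19 in complex IV and 18 in complex V. Cyc1, the cytochrome c1 subunit of complex III, does not match these names and is not in the counts or sums below. Of the 90 genes, 71 had enough counts to be tested and 19 did not. The tested ones were 30, 4, 8, 12 and 17 genes of complexes I to V. The annotation gives 4 of the 90 as processed pseudogenes in spite of their names (Ndufa11b, Ndufs6b, Ndufb4c and Cox6c2), and a pair of overlapping genes share the symbol Atp5o.

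Platelets lack a nucleus, and their RNA and mitochondria come from the megakaryocytes that release them into the blood. Both groups were male mice aged 13 weeks, 4 littermates labelled WT and 4 labelled Dnmt3a+/-, that is, heterozygous for Dnmt3a, which encodes a de novo DNA methyltransferase. Each mouse gave 1 library, so the replicates are animals. Red cells and leukocytes had been depleted with beads against Ter119 and CD45, and libraries were made from polyadenylated RNA with a stranded kit, per the labels. The study's title concerns DNMT3A in stem cells biased toward megakaryocytes, and the comparison asks how platelet transcripts differ with the mutant allele. The sources used here do not give the construction of that allele.

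Oxidative phosphorylation passes electrons from NADH through complex I, or from succinate through complex II, to ubiquinone, then through complex III and cytochrome c to complex IV, which reduces oxygen. Complexes I, III and IV pump protons, and complex V, the ATP synthase, uses the gradient to make ATP. Complex II is wholly nuclear-encoded, while the other complexes each combine nuclear-encoded subunits with a few made from mitochondrial DNA. Circulating platelets draw ATP from both glycolysis and mitochondrial respiration.

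Library totals ran from 15185218 to 22160394 counts. Dnmt3a stood at 21.2, 22.1, 19.8 and 18.2 CPM (counts per 1000000 after TMM scaling for composition) in WT replicates 1 to 4. The libraries labelled Dnmt3a+/- held 9.96, 11.5, 24.2 and 19.5 CPM, so 2 of the 4 lay below every WT library and replicates 3 and 4 did not. The files do not say which exons the allele lacks, and so these levels do not settle the genotype. Directions below are therefore given for the libraries as labelled. The 12 platelet markers took 4.15% to 5.17% of counts in every library. The 10 red cell markers took 2.03% in WT replicate 1, 0.486% in the library labelled Dnmt3a+/- replicate 1 and 0.203% to 0.353% in the other 6 libraries. Hepatocyte markers, all 12 detected in at least 1 library, took 0.00116% to 0.12% in WT and 4.41e-05% to 0.012% in libraries labelled Dnmt3a+/-. The 10 adipocyte markers took 0.00115% to 0.00362% in WT and 0.000634% to 0.00204% in libraries labelled Dnmt3a+/-. The 14 leukocyte markers stayed at or under 0.00108% and the 12 striated muscle markers at or under 0.000743%.

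Subunits of the same complex were not present at equal transcript levels in any library. Levels are given as TPM, transcripts per 1000000 corrected for transcript length, so that genes can be set side by side. Mean TPM over the 8 libraries reached at least 1000 for 2 of the 90 genes, at least 100 for 18, at least 10 for 47 and at least 1 for 75, and lay under 1 for 15. Cox5a alone made up 23.5% of the summed TPM of all 90 genes, the 3 highest genes 43.1% and the 10 highest 74.4%. Together the 90 genes held 1.09% of all TPM. Of that, 48.5% went to complex IV, 31.6% to complex I, 16.3% to complex V, 3.26% to complex III and 0.292% to complex II. Ndufa4 made up 1275 of the 3436 TPM that complex I held on average. It is counted there by its name, here and in the sums below, although its protein is known as a subunit of complex IV.

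**Figure D1:**
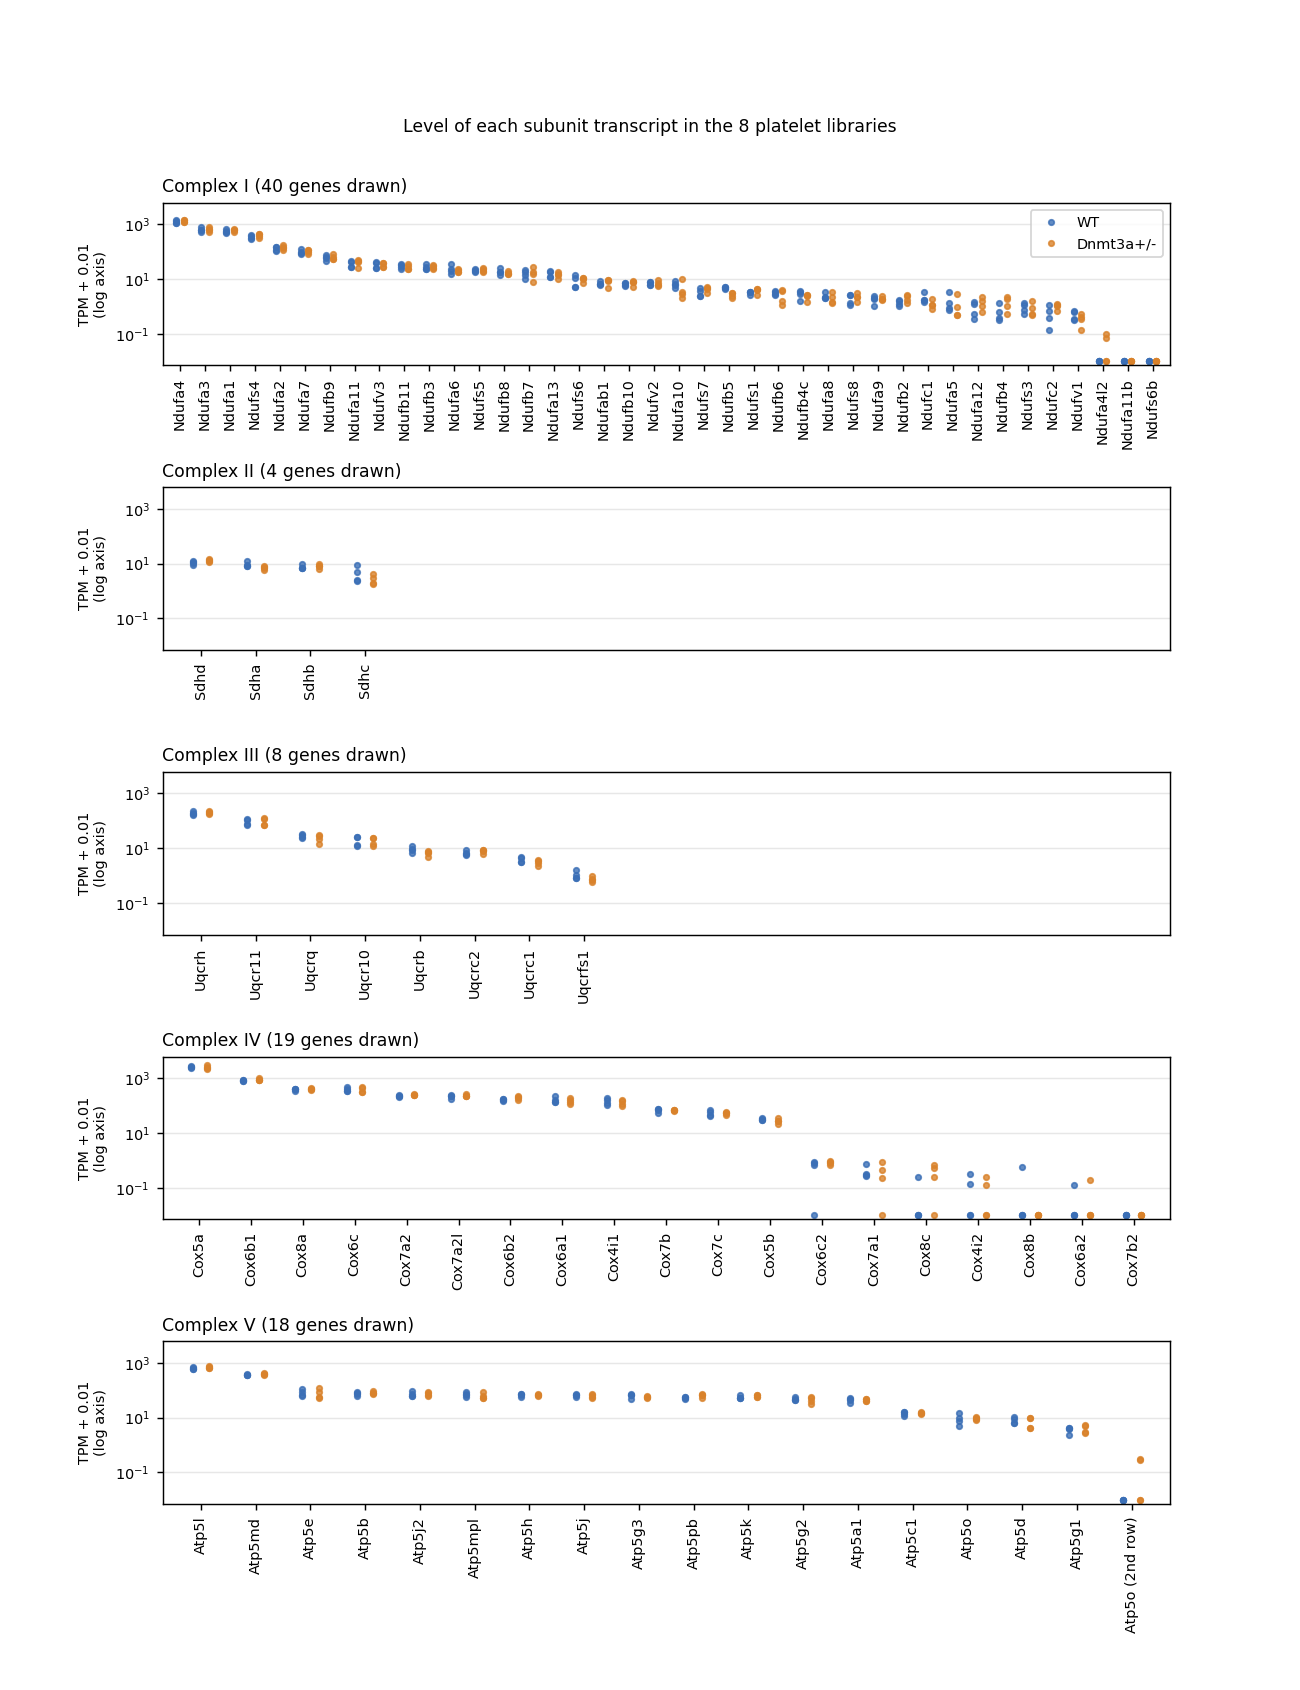
TPM plus 0.01 on a log axis for 89 of the 90 subunit genes, ordered by mean level within each complex, with 1 point per library (blue WT, orange labelled Dnmt3a+/-). Cox5a is the highest gene at 2555 TPM on average, and the points of the 2 labels lie over each other for most genes.

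Complex IV, cytochrome c oxidase, held the most abundant transcript. Cox5a (chromosome 9, 57521274 to 57532426, plus strand, GRCm38; ENSMUSG00000000088) encodes a matrix-side subunit and ranked 58 among all genes by mean TPM. It stood at 2532, 2548, 2357 and 2836 TPM in the 4 WT libraries, in replicate order, and at 2621, 2228, 2361 and 2960 TPM in libraries labelled Dnmt3a+/-. The ranges overlapped, and the highest value belonged to the library labelled Dnmt3a+/- replicate 4. Cox5b, a zinc-binding subunit, was the lowest tested gene of the complex at 31.1 ± 2.18 TPM in WT and 28.2 ± 5.83 TPM in libraries labelled Dnmt3a+/- (SD, n = 4 each). Cox5a exceeded Cox5b 62.2-fold to 136.7-fold in single libraries. Cox6b1, an intermembrane-space subunit, followed at 855 TPM, then Cox8a at 392 and Cox6c at 389, and the last 2 had no fixed order, since Cox8a was the higher in 5 of 8 libraries. Cox4i1, the largest nuclear-encoded subunit, was at 145 ± 37.8 TPM in WT and 132 ± 30.2 TPM in libraries labelled Dnmt3a+/- (SD, n = 4 each).

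In complex I, the NADH dehydrogenase, Ndufa4 led with 1275 TPM (chromosome 6, 11900292 to 11907497, minus strand, GRCm38; ENSMUSG00000029632). Ndufa4 carries a complex I name and is grouped by it here, although its protein is known as a subunit of complex IV. Its level was 1293, 1143, 1144 and 1376 TPM in WT and 1242, 1386, 1205 and 1410 TPM in libraries labelled Dnmt3a+/-. It lay below Cox5a and above Cox6b1 in 8 of 8 libraries. Ndufa3 and Ndufa1, small accessory membrane subunits, followed at 635 and 582 TPM, and Ndufa3 was the higher of them in 7 of 8 libraries. Ndufs4, an accessory subunit of the electron-input module, stood at 337 ± 57.6 TPM in WT and 379 ± 60.9 TPM in libraries labelled Dnmt3a+/- (SD, n = 4 each).

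The catalytic core of complex I had a lower median than the rest, although the ranges overlapped. The 7 nuclear core subunits, which carry the flavin and the iron-sulfur clusters, had a median of 3.47 TPM, against 8.30 TPM for the other 34 complex I genes. The core genes ran from 0.422 to 6.82 TPM and the others from 0 to 1275 TPM. The others include Ndufa4 and the processed pseudogenes Ndufa11b, Ndufs6b and Ndufb4c. Ndufv1, the subunit that binds NADH, had 1 to 12 counts per library and a mean of 0.422 TPM, and it was not tested. Ndufs3, with 5 to 24 counts per library, averaged 0.887 TPM and was not tested either. Ndufs1, which carries iron-sulfur clusters, averaged 3.47 TPM. Ndufa4 exceeded Ndufb2, the lowest tested complex I gene at 1.69 TPM, 477.6-fold to 1390-fold in single libraries.

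In complex V, Atp5l (subunit g of the membrane part) led with 657 TPM, ahead of Atp5md at 381 TPM, and Atp5l was the higher in 8 of 8 libraries. The catalytic beta subunit Atp5b was at 75.2 ± 9.78 TPM in WT and 81.0 ± 9.90 TPM in libraries labelled Dnmt3a+/-. The alpha subunit Atp5a1 was at 45.3 ± 7.96 and 44.1 ± 3.05 TPM and the central-stalk subunit Atp5c1 at 14.7 ± 2.36 and 14.5 ± 0.899 TPM in the same order (SD, n = 4 each). Atp5b exceeded Atp5a1, and Atp5a1 exceeded Atp5c1, in 8 of 8 libraries. Atp5a1 and Atp5b proteins are present in equal number in the enzyme, while their transcripts differed 1.42-fold to 2.25-fold. In complex III, Uqcrh, the hinge protein, averaged 197 TPM and Uqcrfs1, the Rieske iron-sulfur protein that takes electrons from ubiquinol, 0.897 TPM, with 12 to 29 counts per library. Uqcr11, a small accessory subunit, averaged 94.3 TPM and the core proteins Uqcrc1 and Uqcrc2 3.46 and 7.30 TPM.

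Complex II, succinate dehydrogenase, had the narrowest range. Its membrane anchor Sdhd averaged 11.96 TPM, the flavoprotein Sdha 8.13, the iron-sulfur protein Sdhb 7.79 and the second anchor Sdhc 3.68 TPM. The ratio of Sdhd to Sdhc ran from 1.03 to 7.29 across libraries. Sdha was above Sdhb in 5 of 8 libraries, so those neighbours were not ordered beyond their spread.

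Short coding parts went with high TPM. Across the 71 tested subunit genes the coding length of the principal transcript and the mean TPM had a Spearman rho of -0.60, and the 36 genes with a coding length at or under the median of 423 bases had a median of 70.2 TPM, against 8.13 TPM for the other 35. Over 6796 tested genes with a coding part the rho was -0.35. Genes within 1 set of libraries are not independent replicates. TPM is a value divided by transcript length, which can by itself give a negative rho, and the rho of counts not divided by length is not given here. Both values are therefore descriptions.

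Several complex IV subunits exist as isoforms encoded by separate genes. The muscle and heart forms were at or near 0: Cox6a2 and Cox8b had 0 to 2 counts per library, Cox7a1 0 to 3, and Cox4i2, known as the lung form, 0 to 3. The testis forms Cox7b2 and Cox8c had 0 counts in all 8 libraries and 0 to 3 counts per library, respectively. A count of 0 allows up to 3 counts, which is 0.135 to 0.198 CPM in these libraries and covers counting error only. Ndufa4l2, a form known to be induced by low oxygen, had 0 to 1 count per library. The widely expressed partners were 99.9% or more of their family's TPM on average for Cox4i1, Cox6a1 and Cox8a in both groups.

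Cox6b2, known as the testis isoform of the Cox6b subunit, did not share that pattern. Cox6b2 (chromosome 7, 4751792 to 4753094, minus strand, GRCm38; ENSMUSG00000051811) had 736 to 1109 counts per library. Its level was 169, 179, 144 and 157 TPM in WT and 197, 231, 192 and 165 TPM in libraries labelled Dnmt3a+/-. It took 16.6% ± 1.52 of the summed Cox6b1 and Cox6b2 TPM in WT and 18.03% ± 2.04 in libraries labelled Dnmt3a+/- (SD, n = 4 each). By mean TPM it ranked 441 among all genes, and it lay above the ubiquitous Cox4i1 in 7 of 8 libraries. Cox7a2 and Cox7a2l, the second of which is known for joining complexes III and IV, split their family nearly evenly, with Cox7a2 at 51.1% ± 1.90 in WT and 50.7% ± 1.84 in libraries labelled Dnmt3a+/- (SD, n = 4 each). Among the 3 genes for the identical mature c-ring subunit of complex V, Atp5g3 took 54.7% ± 4.46, Atp5g2 42.1% ± 3.86 and Atp5g1 3.196% ± 0.861 in WT (SD, n = 4), and 54.7%, 41.5% and 3.77% in libraries labelled Dnmt3a+/-.

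Promoter windows of RefSeq (GRCm38.p6, 250 bases before to 50 after each start) were found for 69 of the 89 subunit symbols, as 74 windows. They were searched on both strands for letters bound by factors known to drive respiratory genes. GCGCANGCG, for NRF1, occurred in 28.4% of the 74 windows and in 6.25% of all 32851 windows of that length. AANATGGCG, for YY1, occurred in 13.5% and 2.38%, CCGGAAGT, for GABP and other Ets factors, in 6.76% and 3.89%, and TCAAGGTCA, for oestrogen-related receptors, in 2.70% and 0.423%. At least 2 of the 4 were found in 6.76% of the subunit windows and 1.16% of all windows. None of the 4 was found in 55.4% and 88.3%. A match is a run of letters and not a measured binding site. The YY1 letters contain ATG. Their match lies past the start in some windows, such as those of Ndufs4, Atp5j2 and Atp5b, and before it in others, such as Atp5j. Whether such matches are start codons was not tested. The set of all windows was not matched to the subunit windows for base content. The 3 stretches shown first are from subunit genes whose windows hold 2 of the motifs, and Cox5a is shown because it is the most abundant transcript and holds none of the 4. Each runs from 150 bases before to 30 bases after the start, 5′ to 3′ on the gene's strand, with matches in capitals.
Uqcr11 (chr10:80406792-80406971, minus strand): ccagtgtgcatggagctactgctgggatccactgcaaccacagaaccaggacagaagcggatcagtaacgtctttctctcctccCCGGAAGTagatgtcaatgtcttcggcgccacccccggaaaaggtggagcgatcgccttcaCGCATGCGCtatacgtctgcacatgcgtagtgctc
Atp5h (chr11:115419890-115420069, minus strand): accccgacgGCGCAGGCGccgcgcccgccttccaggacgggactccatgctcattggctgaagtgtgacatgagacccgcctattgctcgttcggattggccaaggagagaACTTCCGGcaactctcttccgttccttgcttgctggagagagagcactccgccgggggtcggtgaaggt
Atp5g3 (chr2:73911297-73911476, minus strand): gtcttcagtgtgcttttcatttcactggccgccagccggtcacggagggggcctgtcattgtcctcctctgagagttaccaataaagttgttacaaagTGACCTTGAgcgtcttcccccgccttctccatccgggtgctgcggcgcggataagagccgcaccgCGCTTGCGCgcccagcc
Cox5a (chr9:57521082-57521261, plus strand): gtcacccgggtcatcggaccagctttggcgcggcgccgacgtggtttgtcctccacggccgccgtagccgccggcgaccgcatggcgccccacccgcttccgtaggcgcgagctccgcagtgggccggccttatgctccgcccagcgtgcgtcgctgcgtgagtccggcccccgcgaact
In Uqcr11 the capitals mark an Ets match and then, at the start itself, an NRF1 match on the other strand. In Atp5h they mark an NRF1 match and then an Ets match on the other strand. In Atp5g3 they mark a match for oestrogen-related receptors and then, just past the start, an NRF1 match, both on the other strand.

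The summed levels of every complex overlapped between the labels. Complex I summed to 3342 ± 319 TPM in WT and 3530 ± 98.3 TPM in libraries labelled Dnmt3a+/-, complex IV to 5223 ± 375 and 5320 ± 359 TPM, and complex V to 1728 ± 120 and 1812 ± 84.8 TPM. Complex III summed to 354 ± 41.9 and 357 ± 48.6 TPM and complex II to 32.4 ± 2.87 and 30.7 ± 1.94 TPM (SD, n = 4 each). In each of complexes I, III, IV and V the lowest of the 8 libraries was WT replicate 3, while for complex II it was the library labelled Dnmt3a+/- replicate 4. WT replicate 3 also had 147550 TPM in the 13 subunits encoded by mitochondrial DNA, against 51072 to 75425 TPM in the other 7 libraries, and TPM is a share of 1 fixed total. With those 13 genes left out of the total, the 90 nuclear genes summed to 12057, 11427, 11152 and 11999 per 1000000 in WT and to 12478, 11495, 11447 and 11652 in libraries labelled Dnmt3a+/-. The means became 11660 ± 441 and 11770 ± 481 (SD, n = 4 each), and the ranges overlapped. In bulk RNA, a lower share of one kind of cell and less RNA per cell cannot be told apart.

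**Figure D2:**
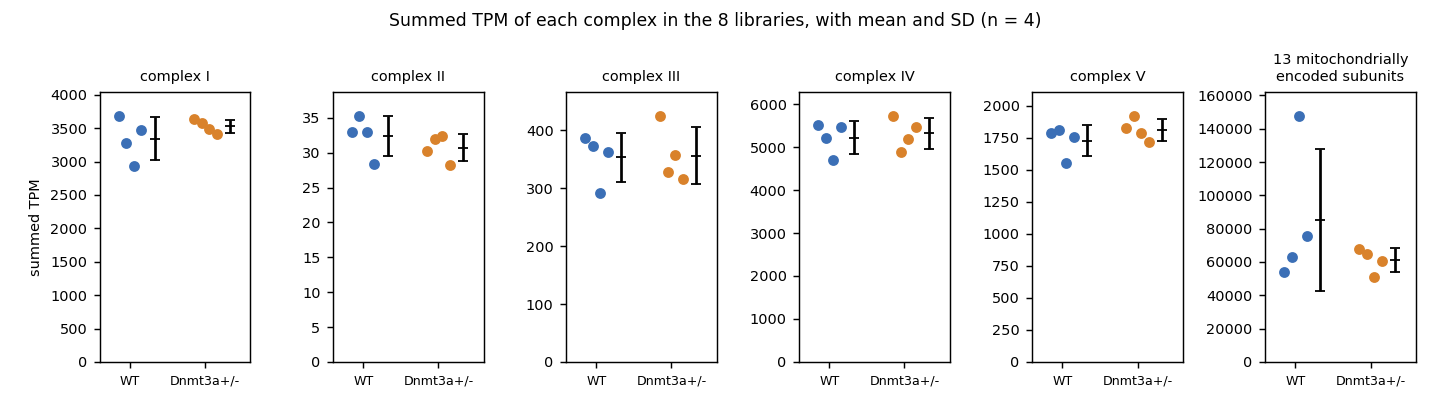
Summed TPM of the nuclear-encoded subunits of each complex and of the 13 mitochondrially encoded subunits, with 1 point per library and the mean ± SD (n = 4) beside the points. The groups overlap in every panel, and 1 WT library stands at 147550 TPM in the last panel, above the other 7.

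For single genes, no subunit passed the test between the labels. The test was edgeR's quasi-likelihood test with Benjamini-Hochberg adjustment over all genes tested, at a threshold of 0.05, and a log2 fold change is positive where the libraries labelled Dnmt3a+/- were higher. It called 0 of 7362 genes (0.0%) and 0 of the 71 subunit genes. At an unadjusted p under 0.05 it held 362 of 7362 genes (4.92%), of which 127 were higher (1.73%) and 235 lower (3.19%), and 2 of the 71 subunit genes, both lower. DESeq2 called 9 of 7348 genes (0.122%), the fit without a filter on low counts 250 of 18462 (1.35%), and the fit without WT replicate 1 135 of 7718 (1.75%). Each of those calls included 0 subunit genes. CPM values of the labels did not overlap for 187 genes (2.54%) and for 1 subunit gene.

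The subunit genes were centred near no change. Their median log2 fold change was -0.04, against -0.005 over all genes tested, with 30 positive and 41 negative values. Single libraries turned the split, to 44 positive and 29 negative without WT replicate 1 and to 41 and 31 without the library labelled Dnmt3a+/- replicate 4, while it was 21 and 52 without the library labelled Dnmt3a+/- replicate 1. Negative values made up 57.7% of the subunit genes and 51.0% of all genes tested. On the deposited TPM scale the split turned, to 38 positive and 33 negative by limma on log2(TPM + 1), or 46.5% negative, with a median of 0.01, against 45.5% of all genes. Fold changes ran from -0.76 (Ndufb5) to 0.40 (Ndufb2). The median standard error was 0.18, against 0.222 over all genes tested. The median coefficient of variation within groups was 18.5%, against 21.4% over all genes tested. At this spread, changes well above a few percent in a single gene could also go uncalled. Ndufb5, at -0.76, had an edgeR adjusted p of 0.647, so the lack of calls does not exclude changes of that size.

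**Figure D3:**
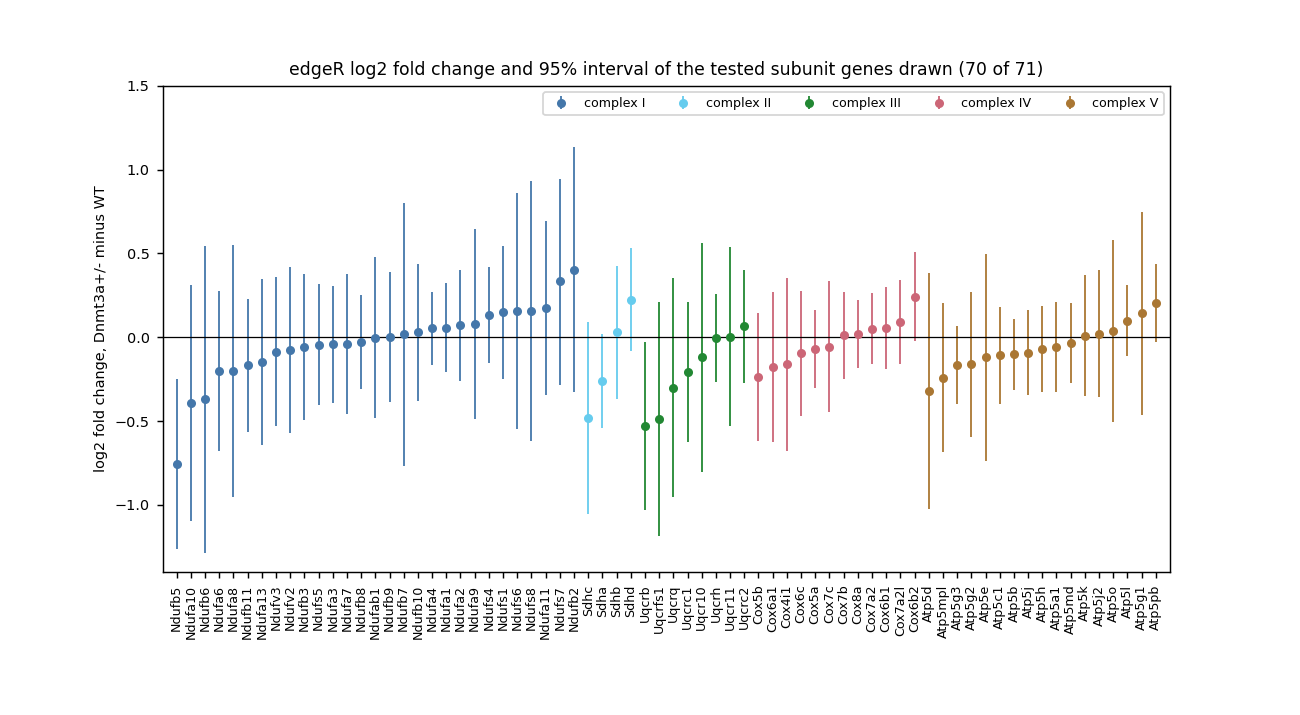
Log2 fold change from edgeR (libraries labelled Dnmt3a+/- minus WT) with its 95% interval for 70 of the 71 tested subunit genes, grouped and coloured by complex and ordered within each. Only the intervals of Ndufb5 and Uqcrb do not reach 0, and neither passed after adjustment.

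Ndufb5, an accessory membrane subunit of complex I (chromosome 3, 32736990 to 32751566, plus strand, GRCm38; ENSMUSG00000027673), had the largest change of the set. It was at 2.17, 1.95, 2.45 and 2.28 CPM in WT and at 1.32, 1.61, 1.27 and 1.04 CPM in libraries labelled Dnmt3a+/-. All 4 libraries labelled Dnmt3a+/- lay below all 4 WT libraries, the one subunit gene of which this held. The log2 fold change was -0.76 (SE 0.23, 95% interval -1.26 to -0.25; edgeR adjusted p = 0.647). It rested on 20 to 39 counts per library. Antisense to it, Mrpl47 covers 12.3% of the exonic bases of Ndufb5 with a mean of 2.5 counts per library, and the sources used here do not give the strand setting of the counting. Hepatocyte markers took 0.00116% to 0.12% of counts in WT and 4.41e-05% to 0.012% in libraries labelled Dnmt3a+/-, and their part in the Ndufb5 values was not tested.

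Uqcrb, a complex III subunit near the quinone site (chromosome 13, 66900617 to 66905378, minus strand, GRCm38; ENSMUSG00000021520), was at 3.44, 4.06, 3.51 and 2.28 CPM in WT and at 2.37, 2.60, 1.76 and 2.47 CPM in libraries labelled Dnmt3a+/-. WT replicate 4 lay among the libraries labelled Dnmt3a+/-, so the groups overlapped. The log2 fold change was -0.53 (SE 0.23, 95% interval -1.03 to -0.03; edgeR adjusted p = 0.986). Of the 8 complex III genes 2 were positive and 6 negative, with a median of -0.16 and no call, and without the library labelled Dnmt3a+/- replicate 4 the split was 4 and 4 with a median of -0.03. Uqcrfs1 had -0.49 (SE 0.32) and the core protein Uqcrc1 -0.21 (SE 0.19), both with intervals across 0. Uqcrh, the most abundant member, had -0.004 (95% interval -0.265 to 0.258).

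In complex II the fitted values had both signs and none passed. Sdha (chromosome 13, 74322254 to 74350280, minus strand, GRCm38; ENSMUSG00000021577) was at 22.5, 21.5, 19.4 and 18.4 CPM in WT and at 14.4, 17.3, 17.7 and 18.8 CPM in libraries labelled Dnmt3a+/-. Only the highest of the latter reached into the WT range. Its log2 fold change was -0.26 (SE 0.13; edgeR adjusted p = 0.987). Sdhd was at 12.6, 9.74, 10.3 and 10.8 CPM in WT and at 13.6, 14.1, 11.5 and 11.5 CPM in libraries labelled Dnmt3a+/-, with 1 WT library inside the other group's range. Its log2 fold change was 0.23 (SE 0.14; edgeR adjusted p = 0.998). Sdhc had -0.48 (SE 0.26) and Sdhb 0.03 (SE 0.18), and the sign of Sdhb turned to -0.03 without WT replicate 1 and to -0.06 without the library labelled Dnmt3a+/- replicate 3.

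Complex IV gave the tightest values. The 12 tested genes had a median coefficient of variation of 11.3% within groups, a median log2 fold change of -0.02, and 6 positive and 6 negative values. The split was 10 positive and 2 negative (median 0.05) without WT replicate 1, and 3 and 9 (median -0.07) without the library labelled Dnmt3a+/- replicate 1. Cox5a had -0.07 (95% interval -0.30 to 0.16), Cox6b1 0.06 (95% interval -0.19 to 0.30) and Cox4i1 -0.16 (95% interval -0.68 to 0.36), and the sign of Cox4i1 turned, to 0.04, without WT replicate 1. Cox6b2 was at 50.6, 51.0, 51.9 and 48.0 CPM in WT and at 62.5, 68.7, 60.1 and 47.0 CPM in libraries labelled Dnmt3a+/-. The first 3 of the latter lay above every WT library and replicate 4 lay below all of them. Its log2 fold change was 0.24 (SE 0.12, 95% interval -0.03 to 0.51; edgeR adjusted p = 0.987). Cox5b had -0.24 (SE 0.17).

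Complex V and complex I were likewise without a call. The 17 tested complex V genes had 6 positive and 11 negative values and a median of -0.07. Without WT replicate 1 they had 9 and 8 with a median of 0.01, and without the library labelled Dnmt3a+/- replicate 1 they had 3 and 14 with a median of -0.09. All 5 genes of F1, the part with the catalytic beta subunit, had negative edgeR values (Atp5a1, Atp5b, Atp5c1, Atp5d and Atp5e). Their median was -0.11, while Atp5b turned positive, at 0.11, by limma on log2(TPM + 1). Without WT replicate 1 the F1 median was -0.03 with 3 of 5 negative. Without the library labelled Dnmt3a+/- replicate 4 it was -0.06, also with 3 of 5 negative. Atp5pb, the peripheral-stalk subunit b, had 0.20 (SE 0.11; edgeR adjusted p = 0.998), and Atp5l had 0.10 (95% interval -0.11 to 0.31). The 30 tested complex I genes had 14 positive and 16 negative values and a median of -0.02. With upper-quartile factors the median was 0.01, and by limma on log2(TPM + 1) it was 0.04 with 20 positive and 10 negative. Of the complex I genes tested without WT replicate 1, 21 were positive and 11 negative (median 0.09), and without the library labelled Dnmt3a+/- replicate 1 the split was 13 and 19 (median -0.14). Without the library labelled Dnmt3a+/- replicate 4 it was 19 and 12 (median 0.03), and without WT replicate 3 it was 16 and 15 (median 0.01). Ndufa4 had 0.05 (95% interval -0.17 to 0.27) and Ndufs4 0.14 (95% interval -0.15 to 0.42).

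**Figure D4:**
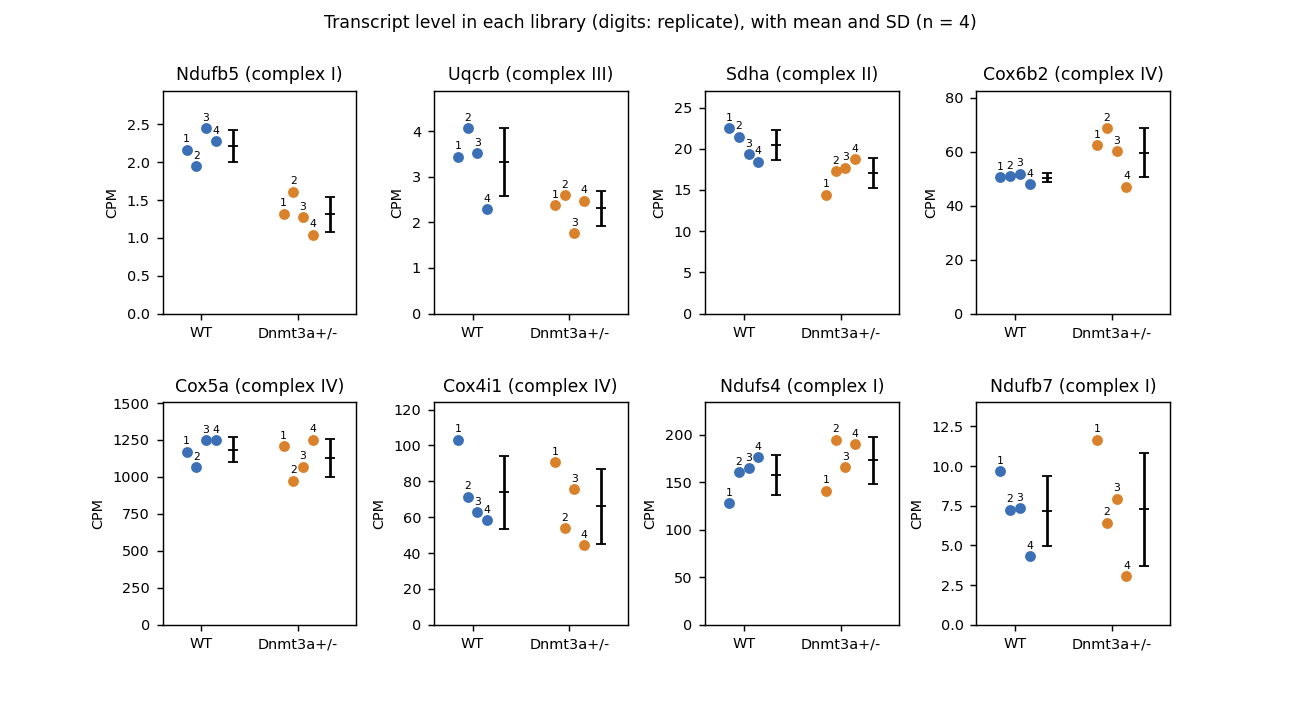
CPM of 8 subunit genes in each library, with digits for the replicate number and bars for the mean ± SD (n = 4). Ndufb5 alone shows groups that do not overlap, and Cox4i1 and Ndufb7 spread within both groups, with replicate 1 highest in each.

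The largest shared variation among subunit genes lay between single libraries and not between the labels. For the 60 subunit genes with at least 30 counts in every library, each log2(CPM + 0.5) was set against the gene's own mean over the 8 libraries. The median deviation was 0.26 in WT replicate 1 and 0.20 in the library labelled Dnmt3a+/- replicate 1, with 50 of 60 genes above their mean in each. It was -0.19 in the library labelled Dnmt3a+/- replicate 4, with 49 of 60 below. The other 5 libraries lay between -0.07 and 0.07. The median over all 4379 genes with such counts stayed between -0.03 and 0.03 in every library, which TMM scaling by itself tends to bring about. A single axis held 65.9% of the squared deviations of the 60 genes and the next axis 10.1%, with no such share at hand for other gene sets. Its weights were highest in WT replicate 1 (0.53) and in the library labelled Dnmt3a+/- replicate 1 (0.45) and lowest in the library labelled Dnmt3a+/- replicate 4 (-0.55), and 52 of 60 genes had a positive value on it.

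The pattern ran through the complexes to different degrees. The median deviation in WT replicate 1 was 0.32 for 22 complex I genes, 0.18 for 4 complex II genes, 0.17 for 6 complex III genes, 0.16 for 12 complex IV genes and 0.26 for 16 complex V genes. In the library labelled Dnmt3a+/- replicate 4 it was -0.26, -0.07, -0.37, -0.20 and -0.18 in the same order. Ndufb7, an accessory complex I subunit, was the most extreme, at 9.68, 7.25, 7.34 and 4.30 CPM in WT and 11.7, 6.44, 7.95 and 3.08 CPM in libraries labelled Dnmt3a+/-. The values of both groups covered nearly the same range. Atp5d and Atp5e of the F1 part, Uqcrq and Uqcr10 of complex III and Cox4i1 stood high on the same axis. Ndufs4 stood lowest and ran the other way, at 128, 161, 165 and 177 CPM in WT and 141, 195, 166 and 190 CPM in libraries labelled Dnmt3a+/-. Of the 4 most abundant transcripts, Cox5a, Ndufa4 and Atp5l had axis values between -0.005 and 0.01, while Cox6b1 had 0.30, against a median of 0.33 over the 60 genes.

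**Figure D5:**
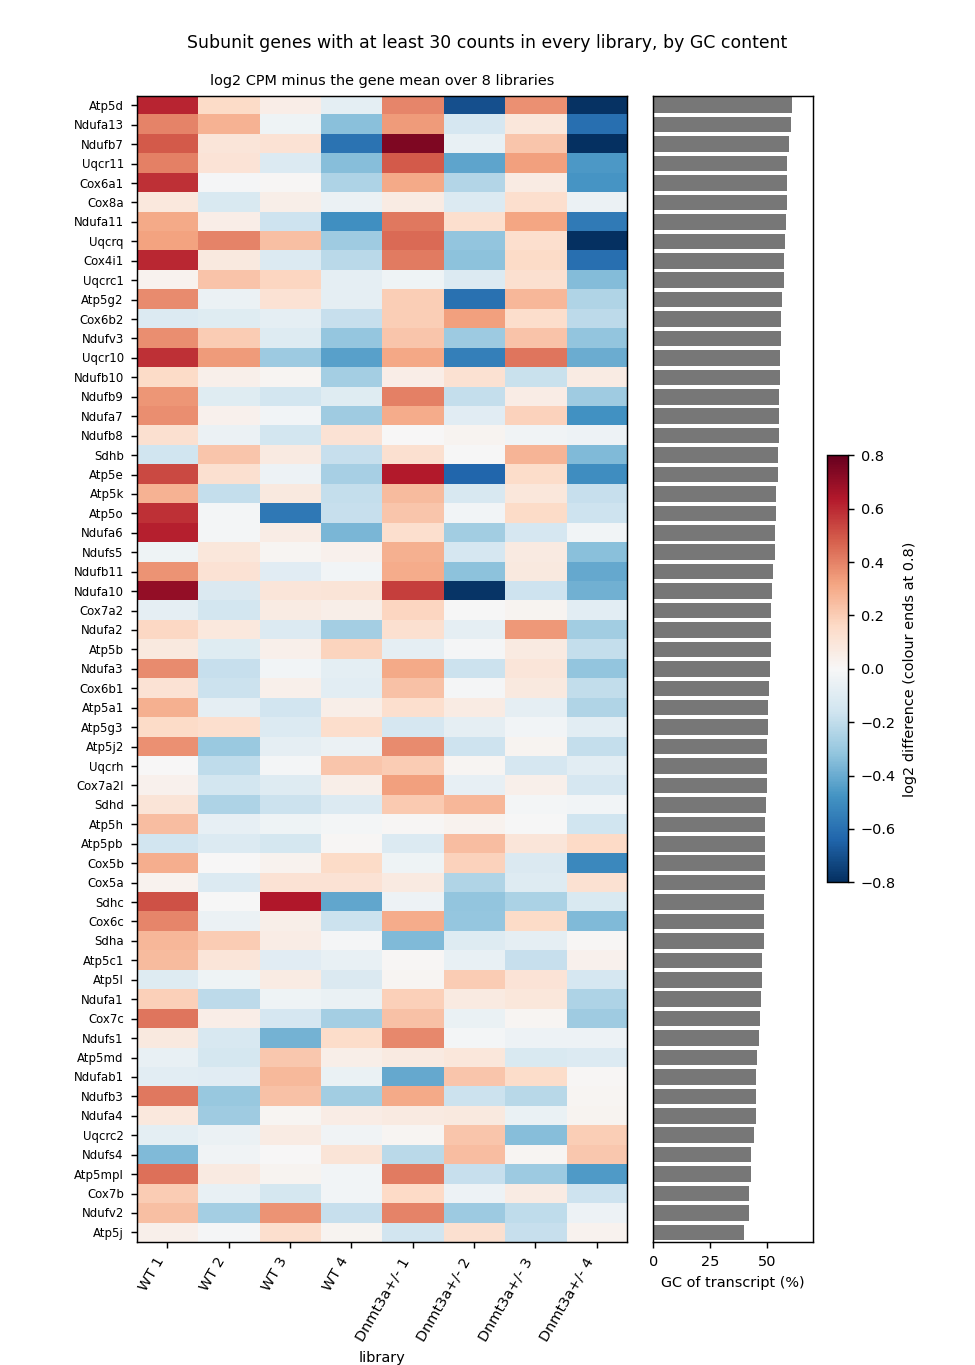
Log2(CPM + 0.5) minus the gene's mean over the 8 libraries for 59 of the 60 subunit genes with at least 30 counts in every library, sorted by the GC content of the principal transcript (bars at right, in percent). Both replicate 1 libraries are red for most genes, and the library labelled Dnmt3a+/- replicate 4 is blue for the GC-rich genes at the top.

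The deviations moved with GC content. Across the 60 subunit genes, the Spearman rho between the axis value and GC content was 0.59. Within single libraries the rho of deviation and GC content was 0.37, 0.45, -0.14 and -0.46 in the 4 WT libraries, in replicate order, and 0.42, -0.40, 0.62 and -0.61 in libraries labelled Dnmt3a+/-. Over all 4379 genes the same values were 0.47, 0.26, -0.27, -0.34, 0.30, -0.46, 0.42 and -0.53, so each library kept its sign. These are descriptions across genes that share a library. The 2 libraries with the highest median deviation were also those with the most red cell marker counts (2.03% and 0.486%). The library labelled Dnmt3a+/- replicate 2 came next at 0.353%, with a median deviation of -0.07. Those labelled Dnmt3a+/- replicates 3 and 4 had 0.32% and 0.318%, with median deviations of 0.07 and -0.19. The part of GC content or of red cell RNA in the pattern was not tested.

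Other genes of the same pathway gave no call either. Assembly factors, which build the complexes, were mostly scarce. Of 19 listed factors of complex I only 4 could be tested (3 positive and 1 negative, but 1 and 3 without the library labelled Dnmt3a+/- replicate 1 or without WT replicate 4), with Ndufaf3 at 0.37 (SE 0.23). Of 23 factors of complex IV 10 could be tested, and 9 were negative with a median of -0.07, against 5 of 10 by limma on log2(TPM + 1). The most abundant of these, Coa5, was at 630 ± 61.5 TPM in WT and 617 ± 75.9 TPM in libraries labelled Dnmt3a+/- (SD, n = 4 each), and Cmc1 had the lowest p of the list with -0.50 (SE 0.34). Complexes II and III each had 2 testable factors with 1 value in each direction (Sdhaf4 at -0.31, SE 0.18, and Uqcc1 at -0.04, SE 0.14), and both testable ATP synthase factors had positive values, but 1 of the 2 without the library labelled Dnmt3a+/- replicate 2 (Atpaf2 at 0.07, SE 0.12). The inhibitor of the ATP synthase, Atpif1, was near the level of Cox6b1 (855 TPM), at 840 ± 115 TPM in WT and 858 ± 104 TPM in libraries labelled Dnmt3a+/- (SD, n = 4 each). Cytochrome c itself, Cycs, was low at 3.61 ± 0.974 and 2.94 ± 0.685 TPM in the same order, with a log2 fold change of -0.32 (SE 0.25). The complex III subunit Cyc1, outside the symbol rule, was at 3.165 ± 1.195 and 2.935 ± 1.383 TPM, with -0.06 (SE 0.27).

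The tricarboxylic acid cycle, which supplies NADH and succinate, had 14 testable genes, 4 positive and 10 negative, with a median of -0.20 and 0 called, and without WT replicate 1 the median was -0.07 with 8 of 14 negative. An unadjusted p under 0.05 was reached by 2 of the 14, both lower, and by 4.92% of all genes tested (3.19% lower). Citrate synthase, Cs, was at 3.84 ± 0.599 CPM in WT and 2.23 ± 0.463 CPM in libraries labelled Dnmt3a+/- (SD, n = 4 each), with a log2 fold change of -0.78 (SE 0.21; edgeR adjusted p = 0.647). Suclg2, a subunit of succinyl-CoA ligase, had -1.23 (SE 0.54; edgeR adjusted p = 0.986). Of 13 regulators of mitochondrial biogenesis 7 could be tested, 5 positive and 2 negative (median 0.08), but 3 and 4 (median -0.02) without the library labelled Dnmt3a+/- replicate 2, with Gabpb1 at 0.63 (SE 0.34) and Nrf1 at -0.001 (SE 0.285). Of 10 carriers and channels 7 could be tested, 2 positive and 5 negative, with Ucp2 at -0.75 (SE 0.54) and 27.7 ± 29.3 TPM in WT. All 13 subunits encoded by mitochondrial DNA had negative values, with a median of -0.68. Of the 13, 4 (among them mt-Nd6 at -1.62, SE 0.65) had an unadjusted p under 0.05, against 4.92% of all genes tested. Those WT means include WT replicate 3, which held 147550 TPM of such transcripts, and without that library the median was -0.06 with 9 of 13 negative.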

How the data were processed

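Platelet RNA of 8 mice was sequenced, 4 labelled WT and 4 labelled Dnmt3a+/-. The authors deposited estimated counts per gene as whole numbers, and they deposited TPM values that sum to 1000000 per library. The submitters' processing notes name cutadapt, STAR, RSEM and DESeq2 with build mm10, without roles or versions, and the sources used here do not give the strand setting or the annotation release. RSEM divides reads shared by near-identical genes, so subunits with processed pseudogenes carry that uncertainty. Coordinates, overlaps and GC content come from GENCODE M21 (GRCm38), which holds 55141 of the 55487 identifiers and all 90 subunit genes, and 86 missing symbols were looked up in it.

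Rounded estimated counts were fitted with edgeR 4.0.16 under R 4.3.3 (TMM, filterByExpr by group with minimum count 10 and minimum total 15, glmQLFit and glmQLFTest), with Benjamini-Hochberg adjustment over 7362 genes at a threshold of 0.05. The biological coefficient of variation was 0.248. Totals ran from 15185218 to 22160394 counts, and every pair of libraries differed beyond sampling noise (chi-square over degrees of freedom at least 12.2). DESeq2 1.42.0, limma 3.58.1, other scaling factors and filters, a replicate block and the removal of each library were tried as alternatives. The fit was tested on simulated data. The subunit genes, the gene lists and the tests were chosen with earlier results of these data known. Named genes are the 3 highest and the lowest tested gene of each complex, genes with an unadjusted p under 0.05, a list of core subunits, the isoform families and, per other pathway list, the gene with the lowest p. Genes outside that rule, such as Atp5pb, Ndufb7, Ndufs4, Uqcrc2, Coa5 and Suclg2, were chosen after their values were seen. Protein sequences were not used here, and 1 subunit gene, which counts and medians include, is not reported singly or drawn.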

Additional observations from a re-analysis of the deposited data

Results flagged for a closer look

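Among 94 groups of 4 libraries, 2 held a library whose gap to the next value was over Dixon's 95% critical share of the group's range, where chance gives about 1 in 20. Atp5g3, the main gene of the c-ring, was at 28.4 CPM in WT replicate 3 and at 33.7 to 34.1 CPM in the other 3 WT libraries. That library also held the most mitochondrially encoded transcripts, and a part of that in the value was not tested. Ndufs1 was at 7.91 CPM in the library labelled Dnmt3a+/- replicate 1 and at 5.76 to 5.88 CPM in the other 3 libraries labelled Dnmt3a+/-. On the TPM scale that library did not stand apart, at 4.02, 2.69, 4.36 and 4.15 TPM in replicates 1 to 4. Antisense to Ndufs1, Ino80dos covers 6.0% of its exonic bases with a mean of 85.8 counts per library, against 101.9 for Ndufs1. The strand setting of the counting is not given.

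A row left out by its name carried signal. Ndufb1-ps, whose name has a pseudogene suffix and which the annotation lists as a noncoding transcript from a bidirectional promoter, had 426 to 935 counts per library. Its level was 64.5 ± 10.9 TPM in WT and 72.6 ± 11.2 TPM in libraries labelled Dnmt3a+/- (SD, n = 4 each), with a log2 fold change of 0.13 (SE 0.13; edgeR adjusted p = 0.998). The other 13 rows left out for that suffix had at most 3 counts in any library.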

How the results depend on the processing

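No subunit gene passed under any of the 16 alternatives run. Over all genes the count of calls went from 0 to 250 with no filter on low counts and to 9 with DESeq2, and ranged from 0 to 135 when single libraries were left out (135 without WT replicate 1, and 1 without the library labelled Dnmt3a+/- replicate 2). Subunit genes with an unadjusted p under 0.05 numbered 2 of 71 in the fit reported (4.92% of all genes), 1 of 87 with no filter (5.95%), 0 of 54 at a mean CPM of at least 5, which removes Ndufb5 and Uqcrb (3.89%), and 1 of 71 by limma on log2(TPM + 1) or log2(TPM + 0.1) (4.89% and 4.69%). With single libraries left out they numbered 1 to 4, where all genes had 3.71% to 7.24%. The 4 were 5.48% of 73 genes, without the library labelled Dnmt3a+/- replicate 1, where all genes had 7.24%. The median over complex II went from -0.12 to 0.004 at a mean CPM of at least 5, which removes Sdhc. In place of log2 ratios of summed TPM of 0.08 for complex I and 0.07 for complex V, the log2 ratio of the median TPM over all genes of the complex, taken in each library and averaged by label, was -0.078 and -0.072. The causes of the other changes were not tested.

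Sign changes touched genes near 0. With single libraries left out, Ndufa4 ranged from -0.024 (without WT replicate 2) to 0.091, Cox6b1 from -0.01 (without the library labelled Dnmt3a+/- replicate 1) to 0.125, and Cox4i1 from -0.343 to 0.039 (without WT replicate 1). Sdhb ranged from -0.063 (without the library labelled Dnmt3a+/- replicate 3) to 0.146 and was also negative without WT replicate 1 or 4 and without the library labelled Dnmt3a+/- replicate 1. Atp5b went to 0.106 by limma on log2(TPM + 1) and to 0.107 on log2(TPM + 0.1). The median over subunit genes ranged from -0.11 to 0.04 with single libraries left out and was 0.01 by limma. Ndufb5 kept its sign in all 15 alternatives that tested it, from -0.88 to -0.65.

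Over all 7362 genes, deviations from the group means correlated at -0.04, 0.08, 0.16 and -0.17 between libraries of the same number 1 to 4, and 1 of 8 libraries correlated best with its own number, so the numbers were not taken to pair the mice. Over the 60 subunit genes of the shared pattern the same correlations were 0.69, 0.02, -0.29 and 0.54. With a replicate block 0 of 7362 genes and 0 subunit genes passed, and 3 of 71 subunit genes (4.23%) had an unadjusted p under 0.05, against 6.71% of all genes. Leaving the 13 mitochondrially encoded subunits out of the TPM total was chosen after seeing the data and moved the log2 ratio of complex I from 0.08 to 0.04. Genes with few counts, such as Ndufv1 and Ndufs3, are limited by depth.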

Other observations

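The ratio of Sdhd to Sdha TPM was 1.42, 0.887, 1.11 and 1.41 in the 4 WT libraries, in replicate order, and 2.37, 2.02, 1.65 and 1.56 in libraries labelled Dnmt3a+/-. The 4 ratios of each label did not overlap. The pair was picked after the values were seen, so no test is given, and neither gene passed the test singly. The share of all gene pairs whose ratios separate the labels in this way is not given here. The genes encode a membrane anchor and the flavoprotein of the same complex.

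The 90 subunit genes lie on 19 chromosomes, with 10 on chromosome 7 and 3 on the X chromosome. Ndufb6 shares 39.0% of its exonic bases with Smim27 on the opposite strand. Smim27 had a higher mean count than the 21.9 counts per library of Ndufb6, so the level of Ndufb6 is uncertain if strand was not used in the counting.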
